A study of Homo sapiens with 22 samples.

Results

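The 41 genes described here are interferon-stimulated genes, taken by symbol from a fixed list and matched by Ensembl ID to the read count table. All 41 matched an ID among the 48162 IDs of that table, and 38 had enough counts to be tested. IFI44L, TRIM22 and XAF1 did not. The values come from RNA-seq of Kasumi-1, an established human line of acute myeloid leukaemia with a RUNX1-RUNX1T1 fusion. The groups were cells given shRNA 1 against FIP1L1, cells given shRNA 2 against FIP1L1, and cells given a control shRNA, with 4 libraries in each group. Every group, the control included, had been transduced with a lentivirus, selected with puromycin and grown in RPMI with fetal bovine serum, and the labels name no interferon treatment. FIP1L1 is a subunit of the factor that cuts and polyadenylates pre-mRNA. Neither separate transductions nor separate cultures are stated for the 4 replicates, and whether cells were pools or clones is not given. The p-values therefore measure only how far these samples spread, which may be technical.

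Interferons are secreted when a cell senses foreign or misplaced nucleic acid. They bind receptors whose JAK kinases activate STAT proteins. STAT2 and IRF9 are subunits of the ISGF3 complex, which binds a DNA element called the interferon-stimulated response element (ISRE) and switches on a set of antiviral genes. Many of those genes encode parts of the system itself, such as the RNA sensors RIG-I and MDA5 and the factors IRF7 and STAT2. Others block viruses directly at entry, replication, translation or release.

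FIP1L1 averaged 15.4 ± 1.55 CPM (counts scaled to a common library size) with shRNA 1 and 19.6 ± 0.788 CPM with shRNA 2, against 41.3 ± 2.27 CPM in the control (SD, n = 4 each). RNA-seq libraries held 12236937 to 20388437 counts. Among the shRNA 1 libraries, replicates 3 and 4 were alike, and replicates 1 and 2 differed from them and, less so, from each other. Replicates 1 and 2 had 7.20% and 6.45% of counts from mitochondrial genes, replicates 3 and 4 had 4.92% and 4.86%, the shRNA 2 libraries had 8.09% to 9.25% and the controls 7.94% to 8.51%. Chi-square over degrees of freedom between shRNA 1 replicates was 11.2 for replicates 1 and 2 and 3.91 for replicates 3 and 4. Between either of the first pair and either of the second it was 14.1 to 29.4. The control gave 3.59 to 7.34 and shRNA 2 gave 3.89 to 6.37, all below the 11.2 of shRNA 1 replicates 1 and 2. Of the myeloid progenitor markers KIT, CD34, CD33, MPO, CD38, RUNX1, RUNX1T1, CD4, GFI1 and SPI1, 10 of 10 were tested. Their summed level was 8301 to 10589 CPM with shRNA 1, 11290 to 13948 CPM with shRNA 2 and 18365 to 20542 CPM in the control, most of it MPO, which averaged 7212, 9913 and 16234 CPM. With shRNA 1, 8 were lower and SPI1 was higher, against 28.7% lower and 28.6% higher among all genes tested. With shRNA 2, 5 were lower and CD33 was higher, against 25.3% lower and 24.7% higher.

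The ISRE is the DNA letter pattern by which this gene set is usually recognised, and it was looked for in the RefSeq promoters (GRCh38.p14) of the members. Each promoter ran from 250 bases before a single RefSeq start per gene to 50 bases from it, and 33 of the 41 members had one. That start can lie inside the gene bounds given below. IFITM3 spans 319669 to 327537 on the minus strand, yet its promoter was 320811 to 321110. Matches at other starts were not looked for. The pattern searched was GAAA, any 2 bases and GAAA, on both strands and with overlapping matches allowed. It was present in 20 of 33 member promoters (60.6%), against 996 of 27305 promoters of all genes (3.65%), and 14 members held it more than once. A second pattern, TTCNNNGAA, the core of the gamma-activated site bound by STAT dimers, was present in 9 of 33 member promoters (27.3%), against 7.88% of all. A match describes these letters only. The sequences below are shown because they belong to members that the results turn on, and the capitals mark every ISRE match in the stretch. Those of ISG15 (chr1:1013354-1013429, plus strand) and BST2 (chr19:17405715-17405790, minus strand) hold 2 overlapping matches each. Those of IFIT1 (chr10:89392477-89392559, plus strand) and IFI27 (chr14:94110598-94110680, plus strand) hold 2 matches a few bases apart. The neighbours IFITM1 (chr11:313970-314059, plus strand) and IFITM3 (chr11:320856-320942, minus strand) also hold 2 each. OAS3 (chr12:112938301-112938493, plus strand) has 2 matches far apart, and EIF2AK2 (chr2:37156961-37157016, minus strand) has 1.
ISG15: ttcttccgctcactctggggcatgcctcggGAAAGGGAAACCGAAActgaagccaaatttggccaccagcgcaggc
BST2: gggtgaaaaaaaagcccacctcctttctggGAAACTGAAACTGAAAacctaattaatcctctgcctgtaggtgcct
IFIT1: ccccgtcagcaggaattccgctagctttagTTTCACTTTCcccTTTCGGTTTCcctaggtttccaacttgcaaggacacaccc
IFI27: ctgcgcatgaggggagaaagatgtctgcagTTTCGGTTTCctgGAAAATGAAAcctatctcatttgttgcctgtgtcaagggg
IFITM1: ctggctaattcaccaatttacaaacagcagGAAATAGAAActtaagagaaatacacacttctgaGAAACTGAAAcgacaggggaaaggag
IFITM3: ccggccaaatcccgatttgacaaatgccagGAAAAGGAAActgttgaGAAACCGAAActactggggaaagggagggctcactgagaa
OAS3: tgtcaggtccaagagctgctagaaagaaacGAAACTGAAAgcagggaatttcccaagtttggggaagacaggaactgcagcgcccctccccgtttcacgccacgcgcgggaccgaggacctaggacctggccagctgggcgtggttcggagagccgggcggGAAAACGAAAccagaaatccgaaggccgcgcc
EIF2AK2: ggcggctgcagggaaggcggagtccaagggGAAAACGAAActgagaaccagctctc

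The first question was whether the set moved as a block when FIP1L1 was lowered. Members moved in both directions, in shares near those of all genes, or below them for lower members with shRNA 2. A gene is called here when the edgeR quasi-likelihood test, adjusted over 15834 genes, gave p under 0.05. With shRNA 1, 10 of 38 members were higher than in the control (26.3%) and 11 were lower (28.9%), against 28.6% and 28.7% of all genes tested. With shRNA 2, 9 were higher (23.7%) and 5 lower (13.2%), against 24.7% and 25.3% of all genes. The median log2 change of the members was -0.20 with shRNA 1, where that of all genes was 0.020, and 0.093 with shRNA 2, where that of all genes was 0.00048. Both comparisons use the same 4 control libraries. The lower count with shRNA 2 was 8 when the fit held only shRNA 2 and the control, since IFITM3, BST2 and RSAD2 then passed. That fit also called more of all genes, 8798 (50.1% of them higher), where the main fit called 7912 (49.4% higher).

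Every shRNA 1 library lay above every control library for 7 members, against 23.7% of all genes, and below for 10 members, against 24.6%. With shRNA 2 these numbers were 8 members above, against 25% of all genes, and 6 below, against 25.2%. Changes of at least 2-fold with shRNA 1 came in shares near those of all genes. Of 38 members, 4 were higher (IRF7, IRF9, OASL and IFI27), against 10.4% of all genes. On the lower side there were 3 (IFITM1, IFITM3 and USP18), against 8.29%. With shRNA 2 the members at least 2-fold higher were IRF9 and IFI27, against 6.98% of all genes, and 0 members were called and at least 2-fold lower, against 6.35%.

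**Figure D1:**
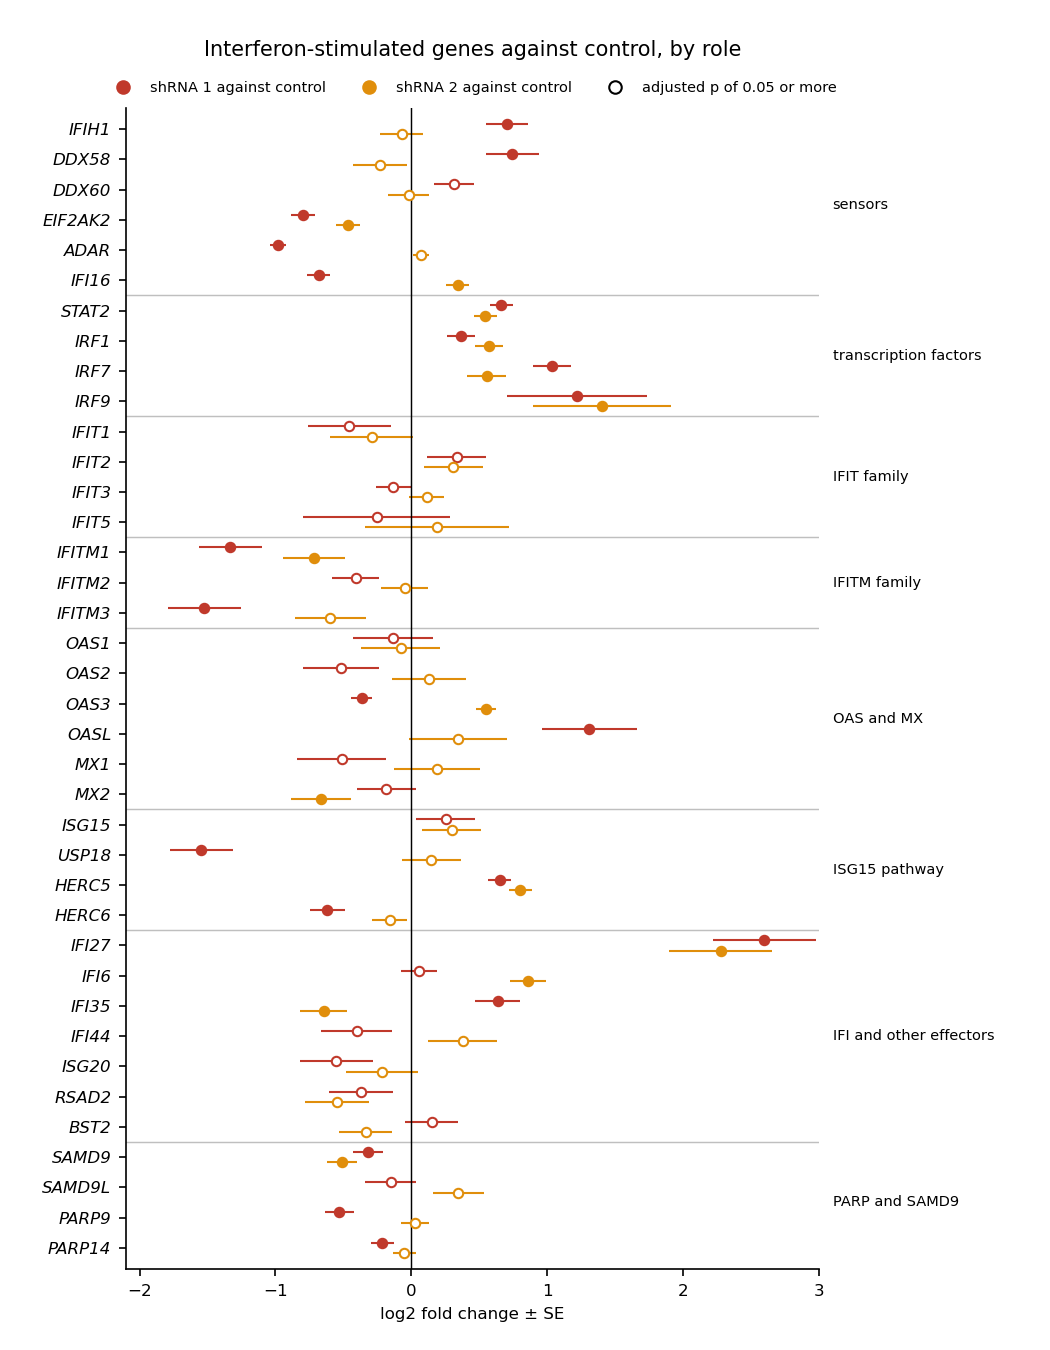
Log2 fold change with its standard error (x axis) of the 38 tested interferon-stimulated genes (y axis, grouped by role), with shRNA 1 in red and shRNA 2 in orange, each against the control. Filled points passed an adjusted p of 0.05, open points did not. The 4 transcription factors lie right of 0 with both shRNAs, the 4 IFIT genes are open with both, and IFI16, OAS3 and IFI35 lie on opposite sides of 0.

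Levels were compared between genes as CPM per kilobase of exons. IFITM3, which blocks virus entry at endosomal membranes, was the highest member in the control, at 117 CPM per kb. BST2 (tetherin, which holds budding virus at the cell surface), ADAR (an RNA-editing enzyme) and IFITM2 followed at 41.3, 40.5 and 40.3 CPM per kb, too close to rank. With shRNA 1 the order at the top was BST2 at 46.1, IFITM3 at 40.99, IFITM2 at 30.4 and ADAR at 20.5 CPM per kb. With shRNA 2 it was IFITM3 at 77.6, ADAR at 42.5, IFITM2 at 39.0 and BST2 at 32.8 CPM per kb. Lower down, MX1, a GTPase that traps viral nucleocapsids, had 0.213 CPM per kb with shRNA 1, 0.344 with shRNA 2 and 0.303 in the control, and ISG15 had 5.48, 5.63 and 4.62 CPM per kb in the same groups.

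**Figure D2:**
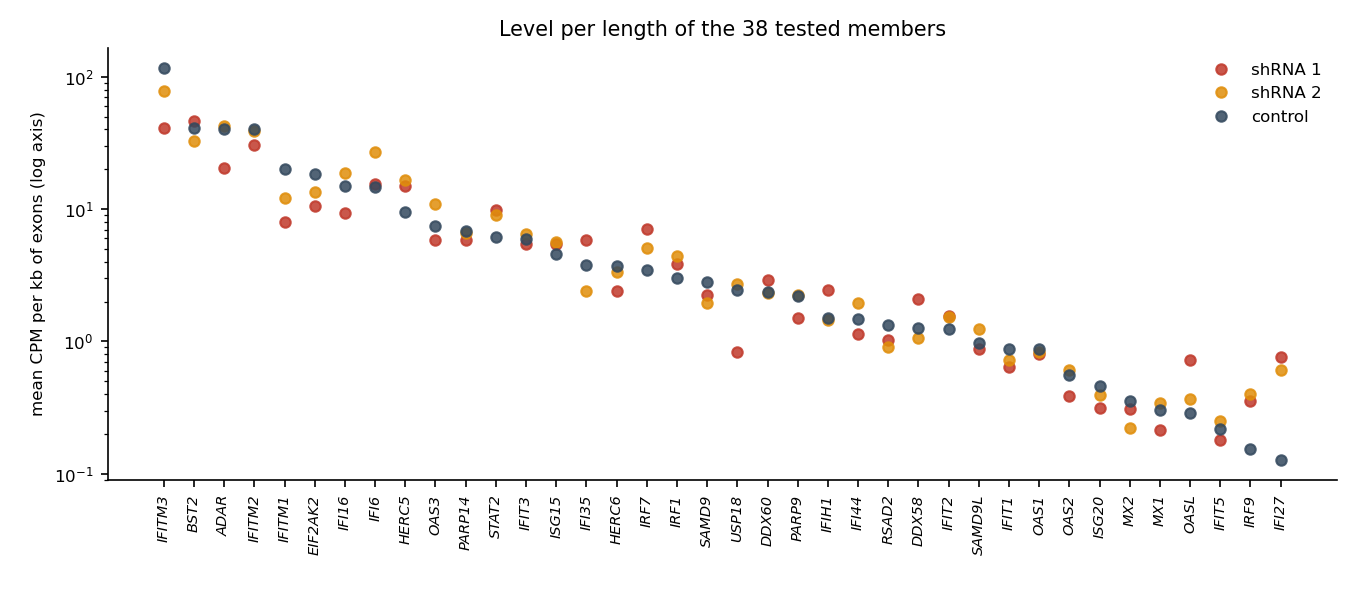
Mean CPM per kilobase of exons on a log axis (y) for the 38 tested members, ordered along x by their control level, with shRNA 1 in red, shRNA 2 in orange and the control in dark blue, 4 libraries each. IFITM3 is the highest in the control at 117 CPM per kb and IFI27 the lowest at 0.126, and the gap between groups is wide for USP18, IFITM1, IFITM3 and IFI27.

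Counts at the interferon genes themselves were close to 0. Of 21 genes for type I, II and III interferons, 17 had no count in any library, and the other 4 were IFNA10, IFNA21, IFNB1 and IFNL1. All 21 together held 9 counts in the 4 shRNA 1 libraries, 1 count in the 4 shRNA 2 libraries and 12 counts in the 4 control libraries. A count of 0 allows up to 3 counts, which is 0.138 to 0.197 CPM per library with shRNA 1, 0.159 to 0.199 with shRNA 2 and 0.168 to 0.256 in the control, for counting error only. Any difference in interferon mRNA below that was not detectable at this depth.

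The receptors and kinases that relay interferon were expressed. Of 8 tested, 4 rose with shRNA 1 and 4 rose with shRNA 2, against 28.6% and 24.7% of all genes, and 0 fell with either by edgeR, against 28.7% and 25.3%. IFNGR1, the ligand-binding chain of the interferon gamma receptor, averaged 35.3 ± 5.38 CPM with shRNA 1 and 22.6 ± 0.631 with shRNA 2, against 17.1 ± 1.91 CPM in the control (SD, n = 4 each). JAK1, a kinase shared by all interferon receptors, rose by 0.61 on the log2 scale with shRNA 1 (edgeR adjusted p = 9.27e-08) and differed by -0.06 with shRNA 2 (edgeR adjusted p = 0.533).

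Of the 6 sensors of viral RNA and DNA, 2 rose and 3 fell with shRNA 1, against 28.6% and 28.7% of all genes. With shRNA 2, 1 rose and 1 fell, against 24.7% and 25.3%. IFIH1 (MDA5) and DDX58 (RIG-I), the cytosolic receptors for double-stranded and 5′-triphosphate RNA, rose with shRNA 1. ADAR, EIF2AK2 and IFI16 fell with shRNA 1.

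ADAR (GRCh38 chromosome 1, 154582057 to 154628013, minus strand) edits adenosine to inosine in double-stranded RNA and so keeps the cell's own RNA from being sensed. It had 210.2, 205, 187 and 193 CPM in shRNA 1 libraries 1 to 4, 417, 400.5, 414 and 417 CPM with shRNA 2, and 373, 384, 419 and 393 CPM in the control. All shRNA 1 libraries lay far below the rest, and the shRNA 2 libraries overlapped the controls. The log2 change of ADAR was -0.98 with shRNA 1 (SE 0.06, edgeR adjusted p = 2.88e-12) and 0.07 with shRNA 2 (SE 0.06, edgeR adjusted p = 0.331). The difference between the shRNAs, shRNA 2 over shRNA 1, was 1.05 (SE 0.06, edgeR adjusted p = 7.52e-13).

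EIF2AK2 encodes PKR, the kinase that halts translation when it binds double-stranded RNA, and lies on chromosome 2 (37099210 to 37157065, minus strand). Its level was 141, 115, 105 and 94.7 CPM with shRNA 1, 152, 143, 139.8 and 139 CPM with shRNA 2, and 185, 201, 198 and 209 CPM in the control. No library of either shRNA reached the lowest control. It fell by 0.80 with shRNA 1 (SE 0.09, edgeR adjusted p = 7.56e-08) and by 0.47 with shRNA 2 (SE 0.09, edgeR adjusted p = 0.000126), both log2.

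IFI16, a nuclear DNA sensor (chromosome 1, 158999968 to 159055155, plus strand), moved in opposite directions. It had 59.7, 45.6, 47.0 and 43.9 CPM with shRNA 1, 111, 98.9, 95.7 and 93.8 CPM with shRNA 2, and 76.5, 81.2, 76.4 and 81.0 CPM in the control. The 3 groups did not overlap. Its log2 change was -0.68 with shRNA 1 (edgeR adjusted p = 3.89e-07) and 0.34 with shRNA 2 (edgeR adjusted p = 0.00167).

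IFIH1 averaged 12.6 ± 1.33 CPM with shRNA 1 and 7.37 ± 0.659 with shRNA 2, against 7.71 ± 1.29 CPM in the control (SD, n = 4 each). DDX58 averaged 9.12 ± 1.89 CPM with shRNA 1 and 4.65 ± 0.492 with shRNA 2, against 5.49 ± 1.18 CPM in the control. The log2 changes with shRNA 1 were 0.70 for IFIH1 (edgeR adjusted p = 0.000422) and 0.74 for DDX58 (edgeR adjusted p = 0.00216). DDX60, a helicase related to RIG-I, differed by 0.32 with shRNA 1 and did not pass (edgeR adjusted p = 0.0731). With shRNA 1 replicates 1 and 2 alone it passed, at 0.55.

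The transcription factors STAT2, IRF1, IRF7 and IRF9 were 4 of 4 called higher with shRNA 1 and 4 of 4 with shRNA 2, against 28.6% and 24.7% of all genes, with median log2 changes of 0.85 and 0.56. DESeq2 called 3 of 4 with shRNA 1 and 4 of 4 with shRNA 2, and the IRF9 calls were unstable, as given below. IRF7 (chromosome 11, 612553 to 615999, minus strand) drives interferon alpha genes once phosphorylated. It had 21.7, 16.7, 17.8 and 18.5 CPM with shRNA 1, 13.5, 14.1, 12.3 and 13.5 CPM with shRNA 2, and 7.997, 11.4, 9.60 and 7.51 CPM in the control. The groups stood in that order without overlap. Its log2 change was 1.04 with shRNA 1 (SE 0.14, edgeR adjusted p = 1.03e-06) and 0.55 with shRNA 2 (SE 0.14, edgeR adjusted p = 0.00222).

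STAT2, the ISGF3 subunit that carries its activation domain, had 57.2, 52.1, 68.0 and 61.2 CPM with shRNA 1, 51.2, 59.8, 55.7 and 52.9 CPM with shRNA 2, and 39.8, 36.0, 35.6 and 39.1 CPM in the control. Both knockdown groups lay wholly above the control. Its log2 changes were 0.66 and 0.55 (edgeR adjusted p = 6.71e-07 and 1.41e-05). IRF1, an early responder to interferon gamma, averaged 30.1 ± 2.71 CPM with shRNA 1 and 34.8 ± 0.816 with shRNA 2, against 23.4 ± 3.38 CPM in the control (SD, n = 4 each). With shRNA 1 replicates 1 and 2 alone IRF1 did not pass, at 0.25 (edgeR adjusted p = 0.0742). Exons of C5orf56 on the other strand cover 22.0% of those of IRF1, and the kit does not record strand, so reads there could come from either gene and IRF1 is uncertain.

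IRF9, the DNA-binding subunit of ISGF3, was low. It averaged 1.34 ± 0.422 CPM with shRNA 1 and 1.52 ± 0.594 with shRNA 2, against 0.587 ± 0.417 CPM in the control (SD, n = 4 each), and the groups overlapped. The call with shRNA 1 (edgeR adjusted p = 0.0461) was lost under 14 of 21 other settings. With shRNA 2 (edgeR adjusted p = 0.0255) it was lost under 3 of 21. Of its 31-base words, 49.5% occur in other genes, chiefly AL136295.5 on the same strand, so its counts are uncertain.

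The IFIT genes encode proteins that bind viral RNA caps and 5′ ends and are among the strongest responders to interferon in most cells. Of all genes, 28.6% were called higher and 28.7% lower with shRNA 1, and 24.7% and 25.3% with shRNA 2. Here 0 of 4 IFIT genes were called with shRNA 1 and 0 of 4 with shRNA 2 by edgeR. An unadjusted edgeR p under 0.05 was found for 0 of them in either comparison, and DESeq2 also called 0 in each. IFIT3 (chromosome 10, 89327894 to 89340971, plus strand), the highest of them in CPM, had 13.4, 15.4, 13.7 and 14.8 CPM with shRNA 1, 16.5, 15.4, 17.3 and 18.8 CPM with shRNA 2, and 13.2, 13.5, 17.7 and 18.2 CPM in the control. Both knockdown groups overlapped the control, and the shRNA 2 libraries lay just above those of shRNA 1. Its log2 difference was -0.13 with shRNA 1 (SE 0.13, edgeR adjusted p = 0.382) and 0.11 with shRNA 2 (SE 0.13, edgeR adjusted p = 0.484).

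IFIT1, IFIT2 and IFIT5 were lower still, between 0.345 and 7.50 CPM over all libraries. In shRNA 1 replicate 2, IFIT1 stood at 5.25 CPM, where the other 3 had 2.40, 2.04 and 2.04, and IFIT2 at 4.05, where the others had 7.14, 7.06 and 7.50. Without that library IFIT1 was called lower, at -0.92 (edgeR adjusted p = 0.00787), and IFIT2 higher, at 0.51 (edgeR adjusted p = 0.0328).

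The IFITM genes encode small membrane proteins that stop virus fusion. Of 3 tested, IFITM1 and IFITM3 were called lower with shRNA 1 by edgeR, against 28.7% of all genes. With shRNA 2, IFITM1 was called lower, against 25.3%. DESeq2 called 3 of 3 with shRNA 1 and 1 of 3 with shRNA 2. IFITM1 (chromosome 11, 313506 to 315272, plus strand) had 4.51, 7.18, 11.7 and 11.3 CPM with shRNA 1, 12.2, 12.4, 15.0 and 13.3 CPM with shRNA 2, and 24.4, 15.4, 26.5 and 20.4 CPM in the control. The lowest control library, at 15.4 CPM, was above all 8 knockdown libraries. The log2 change was -1.33 with shRNA 1 (SE 0.23, edgeR adjusted p = 0.000121) and -0.72 with shRNA 2 (SE 0.23, edgeR adjusted p = 0.0147).

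IFITM3 (chromosome 11, 319669 to 327537, minus strand) had 35.8, 36.7, 72.6 and 76.0 CPM with shRNA 1, 107, 98.7, 113 and 100.5 CPM with shRNA 2, and 145, 118, 195 and 174 CPM in the control. The groups did not overlap, but shRNA 1 replicates 3 and 4 stood well above replicates 1 and 2. The log2 change was -1.52 with shRNA 1 (SE 0.27, edgeR adjusted p = 0.000776), with -2.13 for replicates 1 and 2 alone and -1.10 for replicates 3 and 4 alone. With shRNA 2 it was -0.60 and did not pass (SE 0.26, edgeR adjusted p = 0.0866), though it passed when only those 2 groups were fitted (edgeR adjusted p = 0.0101).

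IFITM2 had 31.9 to 63.8 CPM with shRNA 1, 55.6 to 67.2 with shRNA 2 and 53.4 to 72.5 in the control, and did not pass with shRNA 1 (log2 -0.41, edgeR adjusted p = 0.0598). It was called lower with shRNA 1 under 5 of 21 other settings. Among them were DESeq2 (-0.41, DESeq2 adjusted p = 0.0191), a replicate block (-0.43, edgeR adjusted p = 0.00237) and shRNA 1 replicates 1 and 2 alone, at -0.78. The 3 genes are close copies. IFITM1 also lies within the span of IFITM2 on the same strand, and their exons share 351 bases, 32.5% of IFITM1 and 22.7% of IFITM2. Of the 31-base words, 35.3% in IFITM1, 45.2% in IFITM2 and 36.4% in IFITM3 occur in other genes. Reads of the 3 could thus be split among them or dropped. Exons of AC136475.5 on the other strand cover 21.3% of those of IFITM3, so reads there could come from either gene. The counts of all 3 are uncertain. The mitochondrial share of the library differed in the same way as IFITM3 among the shRNA 1 replicates, lower where IFITM3 was higher, and its part in the result was not tested.

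**Figure D3:**
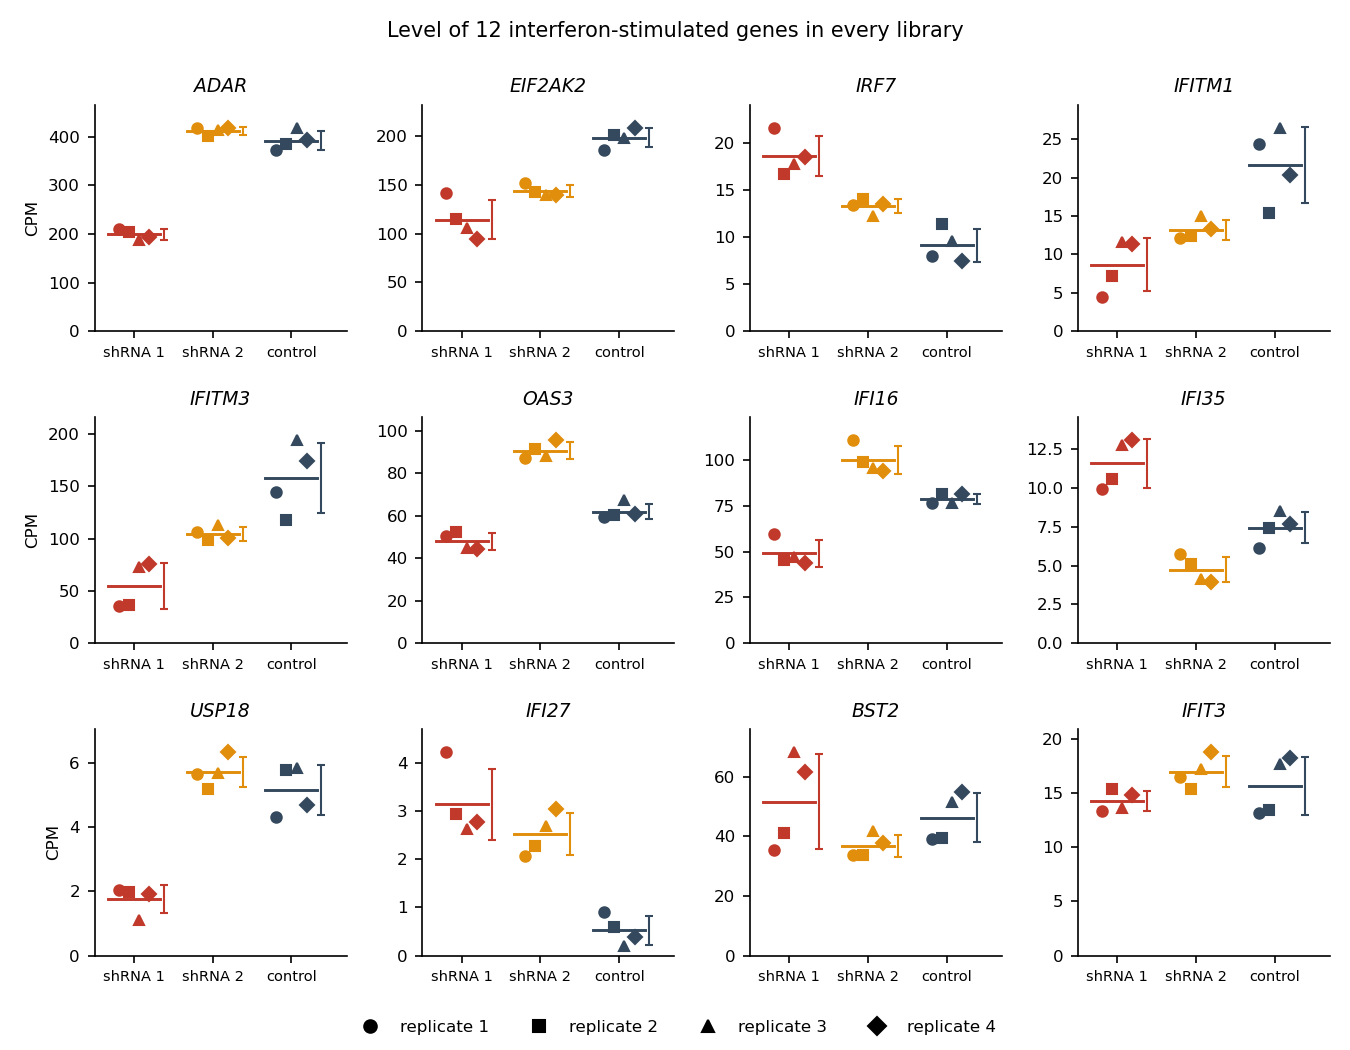
CPM (y axis) of 12 interferon-stimulated genes in each of the 12 libraries, with shRNA 1, shRNA 2 and the control from left to right, marker shapes for replicate number, a line at the group mean and a bar for ± 1 SD (n = 4). ADAR and USP18 are low with shRNA 1 alone, IRF7 and IFI27 are higher in both knockdown groups than in the control, and IFITM1, IFITM3 and BST2 separate shRNA 1 replicates 1 and 2 from 3 and 4.

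The oligoadenylate synthetases make a second messenger when they bind double-stranded RNA, and the MX proteins are antiviral GTPases. With shRNA 1, OASL rose and OAS3 fell among 6 tested, against 28.6% and 28.7% of all genes. With shRNA 2, OAS3 rose and MX2 fell, against 24.7% and 25.3%. OAS3 (chromosome 12, 112938352 to 112973249, plus strand), a synthetase that binds long double-stranded RNA, had 50.4, 52.3, 44.7 and 44.6 CPM with shRNA 1, 87.3, 91.6, 88.2 and 95.8 CPM with shRNA 2, and 59.6, 60.3, 67.4 and 60.7 CPM in the control. The groups did not overlap, with the control between the shRNAs. The log2 change was -0.37 with shRNA 1 (SE 0.07, edgeR adjusted p = 0.000201) and 0.55 with shRNA 2 (SE 0.07, edgeR adjusted p = 1.36e-06), and shRNA 2 over shRNA 1 was 0.92 (edgeR adjusted p = 2.83e-10).

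OASL, which binds RIG-I and lacks synthetase activity, averaged 2.54 ± 0.666 CPM with shRNA 1 and 1.29 ± 0.191 with shRNA 2, against 1.02 ± 0.243 CPM in the control (SD, n = 4 each). Its log2 change with shRNA 1 was 1.31 (edgeR adjusted p = 0.00266). MX2, which acts against retroviruses at the nuclear pore, averaged 2.89 ± 0.523 CPM with shRNA 2, against 4.59 ± 0.344 CPM in the control (SD, n = 4 each), a log2 change of -0.66 (edgeR adjusted p = 0.0158). That call was lost without shRNA 2 replicate 2 (edgeR adjusted p = 0.0610). OAS1, OAS2 and MX1 were between 1.01 and 6.91 CPM in all libraries and were not called with either shRNA. With shRNA 1 replicates 1 and 2 alone MX1 was called lower, at -1.003 (edgeR adjusted p = 0.0348).

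ISG15 is a ubiquitin-like protein, HERC5 ligates it to targets, and USP18 removes it and also blocks the type I interferon receptor. ISG15 itself averaged 5.16 ± 0.757 CPM with shRNA 1 and 5.30 ± 0.890 with shRNA 2, against 4.34 ± 1.11 CPM in the control (SD, n = 4 each), and did not pass (edgeR adjusted p = 0.333 and 0.275). USP18 (chromosome 22, 18149899 to 18177397, plus strand) had 2.06, 1.98, 1.11 and 1.91 CPM with shRNA 1, 5.67, 5.21, 5.70 and 6.36 CPM with shRNA 2, and 4.33, 5.81, 5.87 and 4.71 CPM in the control. The shRNA 1 libraries lay well below all others, and shRNA 2 overlapped the control. The log2 change was -1.55 with shRNA 1 (SE 0.23, edgeR adjusted p = 5.1e-06) and 0.15 with shRNA 2 (SE 0.21, edgeR adjusted p = 0.596). Of its 31-base words, 30.8% occur in other genes, mostly USP41.

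HERC5 had 81.6, 73.1, 65.8 and 64.3 CPM with shRNA 1, 83.9, 77.1, 74.6 and 81.0 CPM with shRNA 2, and 44.5, 49.7, 47.0 and 40.9 CPM in the control. Both knockdown groups lay above the control, with log2 changes of 0.65 (edgeR adjusted p = 5.57e-07) and 0.80 (edgeR adjusted p = 3.47e-08). HERC6, its neighbour on chromosome 4 and the ISG15 ligase of mice, went the other way with shRNA 1. It averaged 14.03 ± 2.69 CPM with shRNA 1 and 19.2 ± 2.32 with shRNA 2, against 21.5 ± 0.518 CPM in the control (SD, n = 4 each), and its log2 change with shRNA 1 was -0.62 (edgeR adjusted p = 0.000299).

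Among the remaining effectors, 2 of 7 tested rose with shRNA 1, against 28.6% of all genes. With shRNA 2, 2 of these effectors rose and 1 fell, against 24.7% and 25.3% of all genes. BST2 (chromosome 19, 17402939 to 17405648, minus strand), the highest of them in CPM, had 35.2, 41.2, 68.3 and 61.6 CPM with shRNA 1, 33.6, 33.7, 41.6 and 37.8 CPM with shRNA 2, and 39.0, 39.3, 51.5 and 55.0 CPM in the control. All groups overlapped, and shRNA 1 replicates 3 and 4 stood above every other library. The log2 difference was 0.15 with shRNA 1 (SE 0.20, edgeR adjusted p = 0.531) and -0.34 with shRNA 2 (SE 0.20, edgeR adjusted p = 0.181). With shRNA 1 replicates 3 and 4 alone BST2 was called higher, at 0.48.

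IFI27, a small mitochondrial and nuclear-envelope protein, showed the widest fold of the tested members with each shRNA, from a low level. It had 4.23, 2.94, 2.63 and 2.76 CPM with shRNA 1, 2.07, 2.27, 2.68 and 3.05 CPM with shRNA 2, and 0.897, 0.598, 0.207 and 0.393 CPM in the control. No control library reached the lowest knockdown library. Control replicate 3 lay at the 3 counts that a count of 0 allows in that library (0.207 CPM), so the size of the fold is imprecise. The log2 changes were 2.598 (SE 0.38, edgeR adjusted p = 3.22e-06) and 2.28 (SE 0.38, edgeR adjusted p = 2.85e-05).

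IFI35 (chromosome 17, 43006725 to 43014456, plus strand), which can be released as a danger signal, had 9.94, 10.5, 12.8 and 13.1 CPM with shRNA 1, 5.72, 5.10, 4.16 and 3.98 CPM with shRNA 2, and 6.13, 7.43, 8.50 and 7.68 CPM in the control. The 3 groups did not overlap, and the control lay between the shRNAs. Its log2 change was 0.64 with shRNA 1 (edgeR adjusted p = 0.00245) and -0.65 with shRNA 2 (edgeR adjusted p = 0.00381). With shRNA 1 replicates 1 and 2 alone the first was 0.46 and did not pass (edgeR adjusted p = 0.0596).

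IFI6, a mitochondrial and endoplasmic reticulum protein that limits cell death and flavivirus replication, averaged 13.3 ± 1.84 CPM with shRNA 1 and 23.2 ± 1.02 with shRNA 2, against 12.7 ± 2.24 CPM in the control (SD, n = 4 each). The log2 change with shRNA 2 was 0.86 (edgeR adjusted p = 8.19e-06). IFI44, ISG20 and RSAD2 (viperin) were not called with either shRNA. Of the members left out of the test, IFI44L had counts in control replicate 3 alone, at 0.276 CPM. TRIM22 was at most 0.329 CPM with shRNA 1, 0.795 with shRNA 2 and 0.768 in the control. XAF1 was at most 0.571, 1.59 and 0.512 CPM in the same groups.

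The PARP and SAMD9 genes code for ADP-ribosyltransferases and for translation repressors that act on poxviruses. Those called against the control in the main fit were lower. Of 4 tested, SAMD9, PARP9 and PARP14 fell with shRNA 1, against 28.7% of all genes. With shRNA 2, SAMD9 fell, against 25.3%. PARP14 (chromosome 3, 122680618 to 122730840, plus strand) had 61.6, 73.3, 59.2 and 53.2 CPM with shRNA 1, 70.7, 66.8, 65.5 and 74.0 CPM with shRNA 2, and 65.0, 74.0, 74.2 and 73.8 CPM in the control. The groups overlapped. Its log2 change with shRNA 1 was -0.21 (SE 0.09, edgeR adjusted p = 0.0362), a call that was lost under 9 of 21 other settings. DESeq2 was among them, and so were library totals in place of TMM scaling (-0.02, edgeR adjusted p = 0.846).

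PARP9 averaged 13.5 ± 0.723 CPM with shRNA 1 and 19.9 ± 0.941 with shRNA 2, against 19.6 ± 1.27 CPM in the control (SD, n = 4 each). The log2 change with shRNA 1 was -0.53 (edgeR adjusted p = 0.000168). SAMD9 averaged 15.4 ± 0.516 CPM with shRNA 1 and 13.4 ± 1.25 with shRNA 2, against 19.1 ± 0.931 CPM in the control, and both knockdown groups lay below it. Its log2 changes were -0.32 (edgeR adjusted p = 0.0165) and -0.51 (edgeR adjusted p = 0.000484). The first did not pass with library totals only (-0.12, edgeR adjusted p = 0.339) or with shRNA 1 replicates 3 and 4 alone (edgeR adjusted p = 0.0592). SAMD9L was not called, at 0.35 with shRNA 2 (edgeR adjusted p = 0.127). Without control replicate 3 it was called higher with shRNA 2, at 0.49 (edgeR adjusted p = 0.0443).

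**Figure D4:**
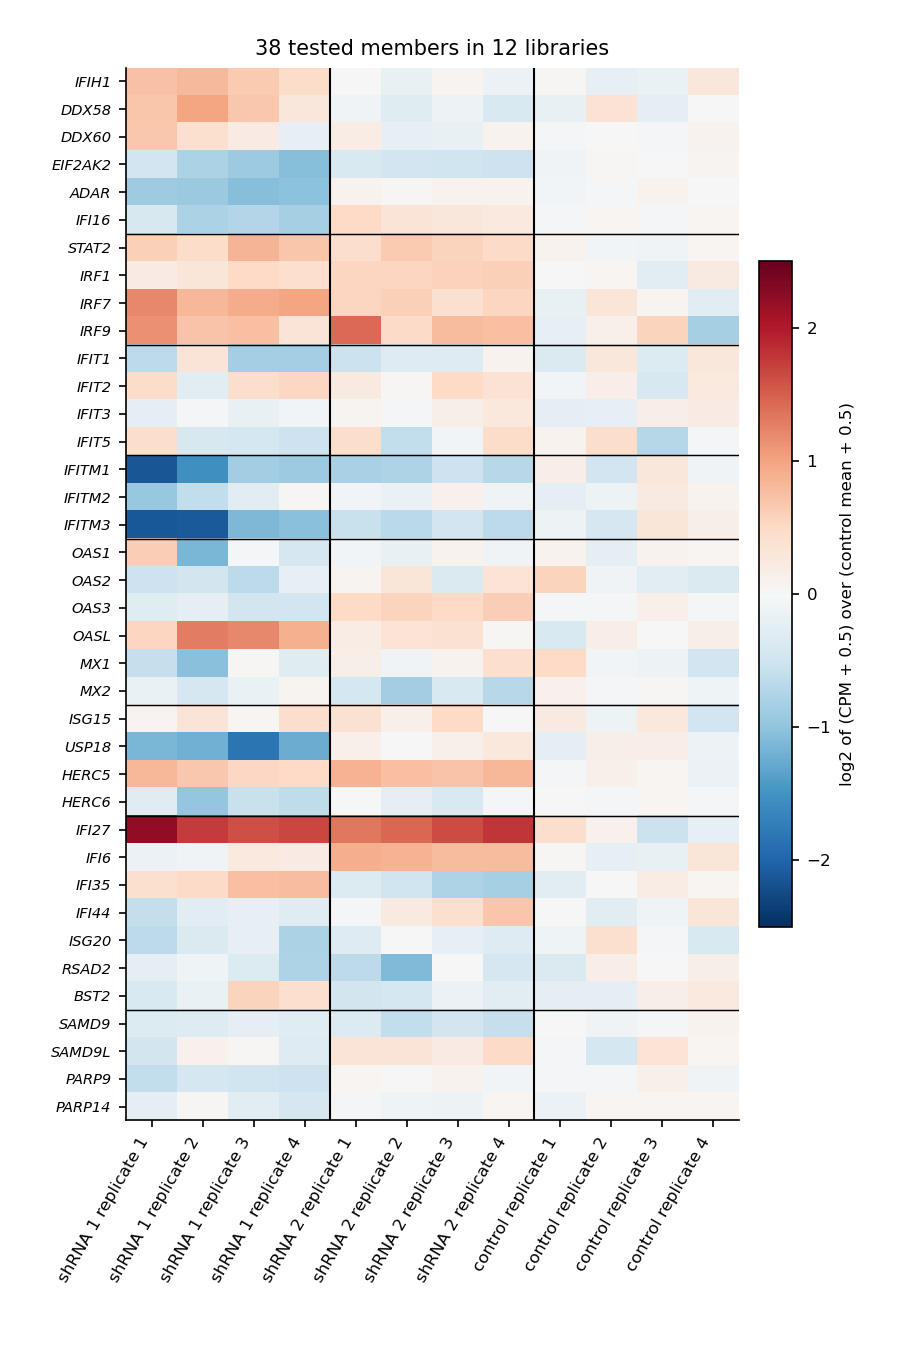
Log2 ratio of CPM + 0.5 to the control mean + 0.5 (colour, red higher and blue lower) for the 38 tested members (rows, by role) in 12 libraries (columns, shRNA 1, shRNA 2 and control from left to right). IFI27 and the transcription factors are red across the 8 knockdown libraries, and ADAR, IFI16 and USP18 are blue in the 4 shRNA 1 libraries. The darkest blue is that of IFITM3 in shRNA 1 replicates 1 and 2 and of IFITM1 in replicate 1. The MX and IFIT rows vary within groups.

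The shRNAs were set against each other directly. Of 38 members, 13 were higher with shRNA 2 than with shRNA 1 (34.2%) and 6 were lower (15.8%), against 29.3% and 29.4% of all genes. Every shRNA 2 library lay above every shRNA 1 library for 12 members, against 27% of all genes, and below for 5, against 25.7%. Differences of at least 2-fold were called higher in USP18, ADAR and IFI16, against 8.78% of all genes, and lower in IFI35, against 10.3%. The median log2 difference was 0.20, where that of all genes was -0.019. With library totals in place of TMM scaling the split was 10 higher and 10 lower, and that scaling moved the median of all genes to -0.13. USP18 showed the widest difference, 1.69 (SE 0.23, edgeR adjusted p = 1.15e-06), followed by ADAR at 1.05 and IFI16 at 1.03. On the other side, IFI35 differed by -1.28 (SE 0.17, edgeR adjusted p = 9.12e-07), DDX58 by -0.97 and IFIH1 by -0.77. FIP1L1 mRNA itself was higher with shRNA 2 than with shRNA 1 by 0.35 (SE 0.10, edgeR adjusted p = 0.00415).

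Some neighbouring members moved alike and others did not. IFITM1 and IFITM3 were both called lower with shRNA 1, as were PARP9 and PARP14, against 28.7% of all genes. The counts of the IFITM genes are uncertain, and the PARP14 call was lost under 9 of 21 other settings. No IFIT gene was called with either shRNA. HERC6 and HERC5, adjacent on chromosome 4, had log2 changes of -0.62 and 0.65 with shRNA 1. OAS1, OAS3 and OAS2 lie side by side on chromosome 12, and of these OAS3 alone was called with either shRNA against the control. Likewise SAMD9 was called with each shRNA and SAMD9L was not.

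Calls were also counted by the ISRE letters, beside 28.6% higher and 28.7% lower among all genes with shRNA 1, and 24.7% and 25.3% with shRNA 2. Of 19 tested members with a match, 3 were higher and 6 lower with shRNA 1, and 4 higher and 3 lower with shRNA 2. Of 12 tested members without one, 5 were higher and 4 lower with shRNA 1, and 4 higher and 1 lower with shRNA 2. ISG15, IFIT1, BST2, IFITM1, IFITM3, OAS3 and IFI27, whose sequences are printed above, each hold 2 matches. Their log2 differences with shRNA 1 ran from -1.52 for IFITM3, whose counts are uncertain, to 2.598 for IFI27, which was low. The part of the matches in these differences was not tested.

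**Figure D5:**
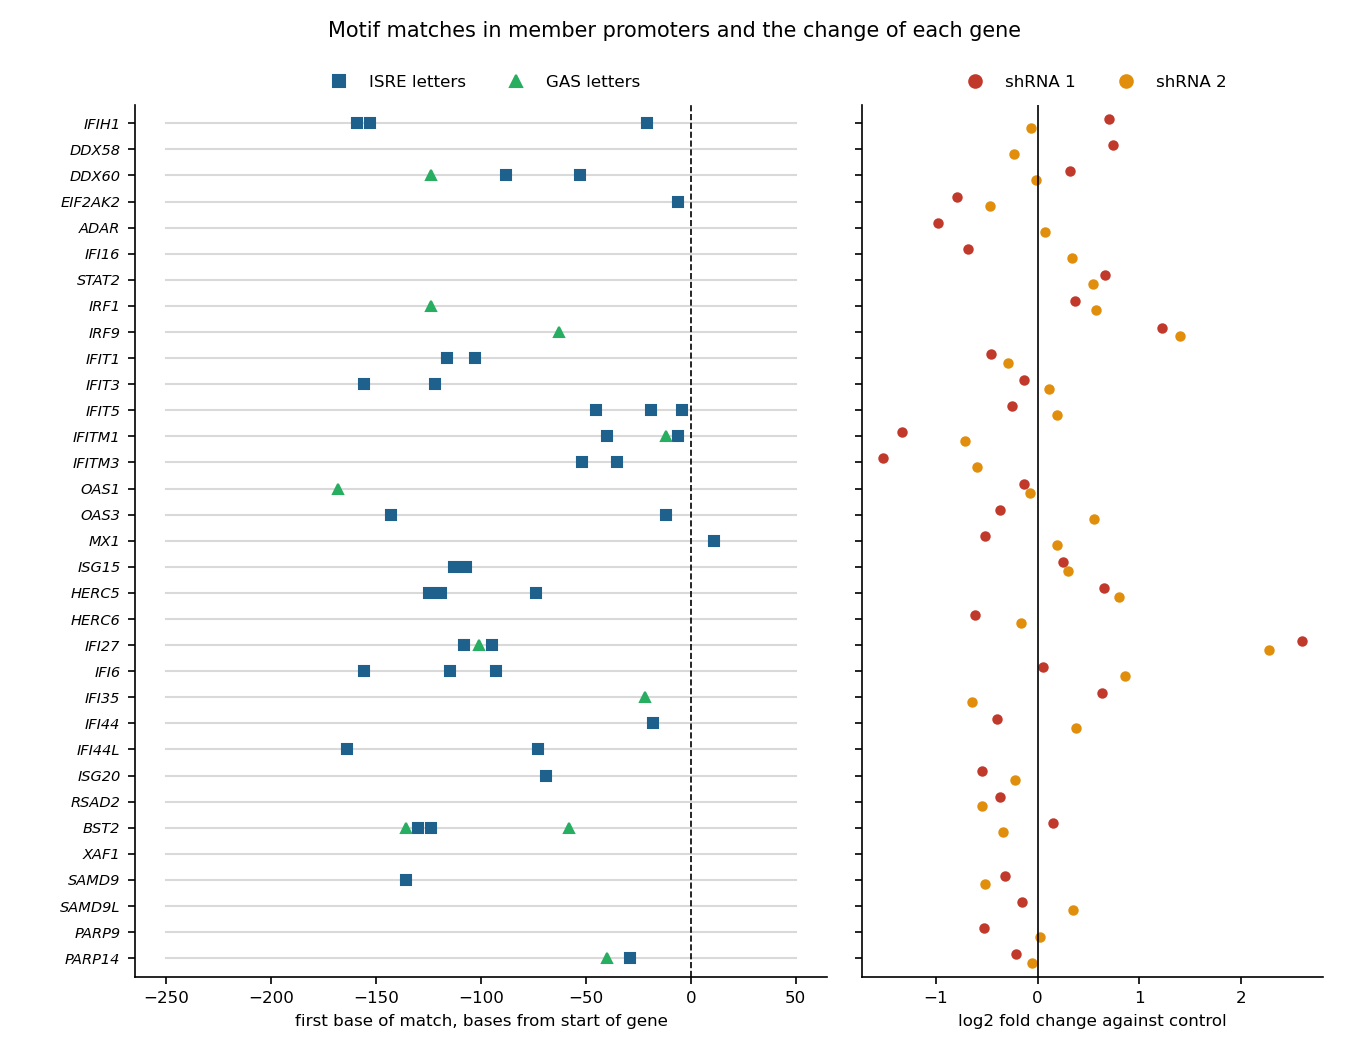
Left, position of the first base of each ISRE match (blue squares) and gamma-activated site match (green triangles) in the RefSeq promoters of 33 members (rows), in bases from the gene's start at 0. Right, log2 fold change against the control on the same rows, with shRNA 1 in red and shRNA 2 in orange. Rows with ISRE matches and rows without them both hold changes on each side of 0.

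The counts of other pathway lists stand beside those same shares of all genes, 28.6% higher and 28.7% lower with shRNA 1, and 24.7% and 25.3% with shRNA 2. Among 15 tested negative regulators, 7 rose and 4 fell with shRNA 1, and 5 rose and 4 fell with shRNA 2. SAMHD1, a nuclease that depletes nucleotides and limits sensing, averaged 15.5 ± 3.95 CPM with shRNA 1 and 22.4 ± 1.15 with shRNA 2, against 33.4 ± 0.989 CPM in the control (SD, n = 4 each). Among 3 tested IRF genes outside the members, 1 rose and 1 fell with each shRNA, and IRF3, which turns on interferon beta, had log2 changes of 0.33 with shRNA 1 (edgeR adjusted p = 0.0039) and -0.28 with shRNA 2 (edgeR adjusted p = 0.0157). TREX1, which degrades cytosolic DNA, rose by 1.47 on the log2 scale with shRNA 2 (edgeR adjusted p = 7.43e-08) and by 0.44 with shRNA 1 (edgeR adjusted p = 0.0275). The TREX1 call with shRNA 1 was lost in the 2-group fit (edgeR adjusted p = 0.0582), without a filter, in 4 fits leaving out 1 library and with shRNA 1 replicates 1 and 2 alone (0.31, edgeR adjusted p = 0.177). With that pair alone IRF3 did not pass either (edgeR adjusted p = 0.183).

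Of 12 tested genes of nucleic acid sensing outside the members, 2 rose and 3 fell with each shRNA. DHX58 (LGP2), which tunes RIG-I and MDA5, rose by 0.61 with shRNA 1 (edgeR adjusted p = 0.000242), and RNF135, a ligase for RIG-I, fell by 1.03 (edgeR adjusted p = 5.02e-07). In the list of MHC class I genes and interferon gamma targets, 6 of 20 rose and 7 fell with shRNA 1, and 8 rose and 6 fell with shRNA 2. B2M, the light chain of MHC class I, averaged 390.2 ± 68.4 CPM with shRNA 1 and 609.6 ± 11.1 with shRNA 2, against 287 ± 48.3 CPM in the control (SD, n = 4 each). Its rise with shRNA 1 did not pass with replicates 1 and 2 alone (log2 0.21, edgeR adjusted p = 0.104). TAPBP (tapasin), which loads peptides on it, fell by 1.15 with shRNA 1 (edgeR adjusted p = 3.58e-12) and rose by 0.61 with shRNA 2 (edgeR adjusted p = 1.33e-07).

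A further 31 tested interferon-stimulated genes outside the 41 gave 8 higher and 11 lower with shRNA 1, and 11 higher and 7 lower with shRNA 2. APOBEC3G, a cytidine deaminase that mutates retroviral DNA, averaged 12.8 ± 2.59 CPM with shRNA 1 and 18.9 ± 1.51 with shRNA 2, against 29.3 ± 3.49 CPM in the control (SD, n = 4 each). NMI, which binds IFI35, fell by 0.75 with shRNA 1 (edgeR adjusted p = 8.36e-07) and by 0.59 with shRNA 2 (edgeR adjusted p = 3.03e-05).

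Markers of other blood cells also moved, and some of these cells express interferon-stimulated genes at their own level. The 9 monocyte and macrophage markers summed to 17.9 to 24.1 CPM with shRNA 1, 27.5 to 41.1 with shRNA 2 and 12.1 to 19.4 in the control. Of the 4 tested, 2 were higher with shRNA 1 and 3 with shRNA 2, against 28.6% and 24.7% of all genes. FCGR3A was at 0 throughout. The 7 markers of plasmacytoid dendritic cells, the main makers of interferon alpha, summed to 33.8 to 43.8 CPM with shRNA 1, 26.9 to 34.4 with shRNA 2 and 19.3 to 22.9 in the control. Of the 3 tested, 1 was higher with shRNA 1 (IL3RA) and 1 with shRNA 2 (NRP1), against the same 28.6% and 24.7%. CLEC4C, which defines the cell, was at 0 in every library. Lymphoid markers summed to 2.91 to 4.46 CPM with shRNA 1, 15.6 to 19.2 with shRNA 2 and 6.01 to 9.82 in the control. Fibroblast and epithelial markers summed to 40.2 to 48.6 CPM with shRNA 1, 136 to 145 with shRNA 2 and 122 to 150.4 in the control, nearly all of it EPCAM, the 1 of 8 with enough counts to test, at 42.3, 138 and 134 CPM in the same groups. MS4A1, NCAM1, COL1A2, COL3A1 and DCN were at 0 in every library. The part of these lists in the values above was not tested, and in bulk RNA fewer cells of a type and less RNA per cell cannot be told apart.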

How the data were processed

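The deposited RNA-seq table gives counts, in whole numbers, for each Ensembl gene and library. Tools listed per the submitters' processing notes are DESeq2, STAR 2.7.3a and cutadapt 2.6, with hg19 as the build, and no role is given to any. How counting treated strand, and its annotation, are not stated there or in the labels. Symbols, positions and exon lengths came from GENCODE 29 on GRCh38, and 2820 IDs had no symbol. The 3'READS counts of poly(A) sites were not used here.

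Tests used edgeR 4.0.16 under R 4.3.3, by its quasi-likelihood method (TMM scaling, filterByExpr, robust spread, 12 libraries in 1 fit, 9 residual degrees of freedom, two-sided, Benjamini-Hochberg over 15834 genes, threshold 0.05). The fit was tested on simulated data. CPM use TMM-scaled library sizes, given as mean ± SD, and standard errors come from the fit. Shared sequence was counted in 31-base words over transcripts. DESeq2 1.42.0, other scalings, no filter, 2-group fits, a replicate block and fits leaving out libraries were alternatives.

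The members, lists and rules were chosen with earlier results of these data known. Every member is accounted for. Members with a mean of at least 5 CPM that were called and moved at least 2-fold, or the highest of a role, have every library given, and STAT2, HERC5, EIF2AK2, IFI16, IFI27 and IFI35 were added after their values were seen. From each other list the rule took up to 2 genes higher and 2 lower, and some items are not reported here. The lists were interferon genes, receptors and kinases, negative regulators, nucleic acid sensing, other IRF factors, MHC class I and interferon gamma targets, other interferon-stimulated genes, and markers of myeloid progenitors, monocytes, plasmacytoid dendritic cells, lymphoid cells, and fibroblasts and epithelia. Depth limits precision at low counts. Floors cover counting error only, since molecular identifiers were not used.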

Additional observations from a re-analysis of the deposited data

Results flagged for a closer look

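Differences between the shRNAs, with one above and the other below the control, were seen in 3 members: shRNA 2 over shRNA 1 was 1.03 for IFI16, 0.92 for OAS3 and -1.28 for IFI35 on the log2 scale, each past the edgeR threshold.

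A library far from the other 3 of its group was found in 11 of 192 groups of 4, where chance gives about 1 in 20. In the shRNA 1 group these were USP18 at 1.11 CPM in replicate 3, IFIT1 at 5.25 CPM and IFIT2 at 4.05 CPM in replicate 2, and IFIT5 at 1.37 CPM and TRAF3 at 72.0 CPM in replicate 1. With shRNA 2 it was DHX58 at 14.7 CPM in replicate 2. In the control these were OAS3 at 67.4 CPM in replicate 3, PARP14 at 65.0 CPM in replicate 1, DDX60 at 16.9 CPM and FCGR1A at 28.0 CPM in replicate 4, and OAS1 at 3.59 CPM in replicate 2.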

How the results depend on the processing

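No called member changed direction under any of 21 other settings. Of 21 members called with shRNA 1 against the control, 16 were called under all of them, and PARP14, IRF1, IRF9, IFI35 and SAMD9 were not. With shRNA 2 it was 12 of 14, without IRF9 and MX2, and between the shRNAs 12 of 19, without IFITM1, BST2, EIF2AK2, OAS2, OASL, IFI44 and SAMD9L. The count of members lower with shRNA 2 was 8 with only the 2 groups fitted, and 8 in each fit with a pair of shRNA 1 libraries alone, a choice made after seeing the data. Calls over all genes with shRNA 2 also grew, from 7912 in the main fit to 8798 with the 2 groups. They numbered 8553 with shRNA 1 replicates 1 and 2 alone and 9160 with replicates 3 and 4 alone. Members lower with shRNA 2 than with shRNA 1 were 10 with library totals only. That scaling moved the median log2 change of all genes to 0.21 with shRNA 1 and 0.082 with shRNA 2, and 66.1%, 58.1% and 40.5% of calls were then higher with shRNA 1, with shRNA 2 and for shRNA 2 over shRNA 1, where TMM gave 49.9%, 49.4% and 49.9%. IRF5, a factor outside the 41, changed sign with shRNA 1 under it, to 0.0094 (edgeR adjusted p = 0.918). The causes were not tested.

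Leaving out 1 library at a time gave 9 to 11 members higher and 10 to 12 lower with shRNA 1, 8 to 10 higher and 4 to 6 lower with shRNA 2, and 10 to 15 higher and 5 to 7 lower for shRNA 2 over shRNA 1. Calls over all genes in these fits numbered 8619 to 9225, 7170 to 8434 and 8665 to 9468 in the same order. The main fit gave 9076, 7912 and 9299. Between 48.7% and 50.4% of the leave-out calls were higher. Deviations from the group means correlated at -0.037 to 0.089 between same-numbered libraries of different groups. Between differently numbered ones the range was -0.121 to 0.095. These overlapping ranges do not decide whether the numbers pair the libraries, and the labels do not say what a number shares. With a replicate block, 10 members were higher and 12 lower with shRNA 1, 9 and 7 with shRNA 2, and 14 and 6 for shRNA 2 over shRNA 1. Over all genes the block gave 9123, 8005 and 9337 calls in that order, of which 49.4%, 49.7% and 50.5% were higher. Standard errors were wider for members at low counts, such as IRF9 and IFIT5.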
